A study of Mus musculus with 6 samples.

Results

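Dendritic cells are the leukocytes that take up antigen in a tissue, mature, travel through lymph vessels to the draining node and present that antigen to T cells. Langerhans cells are the related antigen-presenting cells of the epidermis. The 10 genes described here mark stages and subsets of these cells: Cd207 for Langerhans cells and langerin-positive dendritic cells, Ccr7, Cd83 and Fscn1 for maturation and migration, Flt3 and Zbtb46 for the conventional lineage, Xcr1, Clec9a and Batf3 for the cross-presenting type 1 subset, and Cd209a for type 2 and monocyte-derived cells. They were listed by name with earlier results of these data known, the array row of each was chosen by its mean over all 6 arrays (the highest of a gene's rows), and they make up 10 of the 19938 genes tested. All 10 were measured, each on 1 row of its own.

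The tumors were of Renca, a renal carcinoma cell line from a BALB/c mouse, grown in BALB/c mice that have an intact immune system. Intrakidney tumors came from cells injected into the outer cortex of the kidney (3 mice) and subcutaneous tumors from cells injected under the skin (another 3 mice), both taken on day 12, and RNA of each whole tumor was hybridised to a Mouse Gene 1.0 ST array. Every value below is a log2 RMA value, a normalised array signal on a log scale, and every log2 fold change is intrakidney minus subcutaneous. The array medians lay between 7.08 and 7.11, and precision is limited by the 3 arrays of each group. The sample is a whole tumor, so fewer cells of a type and less RNA per cell cannot be told apart.

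Of the 10 genes, only Cd207 passed an adjusted p of 0.05 in limma's test over all genes. It was lower in intrakidney tumors, in a comparison where 0.231% of all genes passed in either direction, 0.100% as lower and 0.130% as higher. Cd207 and Ccr7 were also the 2 genes whose intrakidney values all lay below their subcutaneous values, which 6.53% of all genes did; 8.41% had groups apart the other way, 14.9% in all. The median log2 fold change of the 10 genes was 0.03, beside -0.006 over all genes, with 6 genes above 0 and 4 below (48.0% and 52.0% of all genes). The low Cd207 and Ccr7 values thus stood in a list whose other genes lay on both sides of 0.

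The promoter windows of 4 genes the results turn on are printed here, from 250 bases before to 50 bases after the annotated start, 5′ to 3′ along the gene, from RefSeq on GRCm38.p6. Of the 10 genes 8 had such a window, and Ccr7 and Cd83 are not among them. Cd207 is shown as the gene that passed, Xcr1 and Clec9a as the pair with the largest excess in 1 tumor, and Zbtb46 as the only other gene with a motif match. Capitals mark the sequence TGANTCA, bound by AP-1 and BATF factors, which reads the same on both strands.
Cd207 (chr6:83677808-83678107, minus strand): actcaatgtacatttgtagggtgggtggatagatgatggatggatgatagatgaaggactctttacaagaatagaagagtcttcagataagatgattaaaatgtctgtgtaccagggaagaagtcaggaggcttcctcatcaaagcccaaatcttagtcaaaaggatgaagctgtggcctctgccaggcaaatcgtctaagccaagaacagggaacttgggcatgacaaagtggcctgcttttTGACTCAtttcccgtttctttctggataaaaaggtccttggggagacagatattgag
Xcr1 (chr9:123861980-123862279, minus strand): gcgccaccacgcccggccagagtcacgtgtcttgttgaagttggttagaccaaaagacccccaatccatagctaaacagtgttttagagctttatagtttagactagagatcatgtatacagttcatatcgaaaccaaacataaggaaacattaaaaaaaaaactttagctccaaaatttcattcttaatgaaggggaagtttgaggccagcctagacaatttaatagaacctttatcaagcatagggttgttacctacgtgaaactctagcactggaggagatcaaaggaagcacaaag
Clec9a (chr6:129408612-129408911, plus strand): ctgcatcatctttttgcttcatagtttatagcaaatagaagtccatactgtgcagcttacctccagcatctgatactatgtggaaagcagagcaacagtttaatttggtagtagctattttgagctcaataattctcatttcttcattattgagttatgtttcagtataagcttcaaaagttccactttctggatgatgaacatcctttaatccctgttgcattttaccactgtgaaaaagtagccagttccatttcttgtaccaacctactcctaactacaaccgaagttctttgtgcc
Zbtb46 (chr2:181424339-181424638, minus strand): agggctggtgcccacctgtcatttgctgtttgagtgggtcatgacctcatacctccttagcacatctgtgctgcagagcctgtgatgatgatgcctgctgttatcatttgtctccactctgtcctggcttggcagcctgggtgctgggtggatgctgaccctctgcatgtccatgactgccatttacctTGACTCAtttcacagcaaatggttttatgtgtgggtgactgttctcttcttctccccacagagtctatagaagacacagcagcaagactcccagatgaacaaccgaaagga
The match began 7 bases before the start in Cd207 (position -7) and 61 bases before it in Zbtb46 (position -61), and TGANTCA occurred in 7.81% of the 32851 promoter windows of the same length. Matches were sought on both strands also for GGGACTT (the first letters of an NF-kB site, in 5.44% of windows), AGGAAGT (PU.1, 9.35%) and TGTGGTT (RUNX, 5.27%), and none of the 8 windows held them. No match overlapped another. A match is a description of the letters in this window.

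Cd207 encodes langerin, the mannose-binding lectin that forms the Birbeck granules of Langerhans cells. Its log2 values were 6.70, 6.76 and 6.72 in the intrakidney tumors, against 7.28, 7.46 and 7.33 in the subcutaneous tumors. Every intrakidney tumor was lower than every subcutaneous tumor, with a gap of 0.52 between the nearest pair, and the SD was 0.03 in intrakidney and 0.09 in subcutaneous tumors. Cd207 fell by 0.63 ± 0.07 on the log2 scale (SE, n = 3 per group), which is 1.55-fold (95% interval of the log2 fold change -0.80 to -0.46, limma adjusted p = 0.0299), and it ranked 28 by p among all genes. The direction was the same without each of the 6 arrays, as groups that do not overlap require. Leaving out any 1 array ended the call, with an adjusted p between 0.0713 and 0.179.

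Markers of other cells were read beside this difference. Keratinocyte genes, which would come with epidermis, had overlapping groups throughout. Apart from Sfn and Lgals7, their group means lay below 6.82, the 40th percentile of all genes. RMA compresses differences at such low signals. All 12 listed genes were measured, 0 had groups that did not overlap, 4 lay above 0 and 8 below, and their summed linear signal was 966 to 1062 in intrakidney tumors and 947 to 1114 in subcutaneous tumors. T cell genes lay lower in intrakidney tumors: all 13 measured of 14 listed genes had a negative log2 fold change, 0 passed the threshold, and their summed linear signal was 1269 to 1632 in intrakidney tumors and 1621 to 1900 in subcutaneous tumors. Fibroblast genes lay lower as well, with 9 of 11 below 0, 2 of them past the threshold (Postn and Lrrc15), and a summed linear signal of 6744 to 12528 in intrakidney tumors and 13325 to 14796 in subcutaneous tumors. The part of keratinocyte, T cell and fibroblast RNA in the Cd207 difference was not tested. RMA signals have no zero, so no marker was listed at 0.

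Other genes used by Langerhans cells were mostly lower in intrakidney tumors without passing the test. Of 13 measured genes of 14 listed, 10 lay below 0 and 3 above, 0 passed the threshold in either direction, and the median log2 fold change was -0.18, beside -0.006 over all genes. Cdh1, which encodes E-cadherin and is made by epithelial tumor cells too, measured 9.09, 9.53 and 9.30 in intrakidney tumors and 9.78, 9.91 and 9.79 in subcutaneous tumors (log2 fold change -0.52 ± 0.11, SE, adjusted p = 0.209). Ly75, which encodes the endocytic receptor DEC-205 of Langerhans cells and type 1 dendritic cells, measured 6.61, 6.42 and 6.42 in intrakidney tumors and 6.78, 6.95 and 6.85 in subcutaneous tumors (-0.37 ± 0.08, adjusted p = 0.220). In both genes the groups did not overlap. Runx3, a transcription factor that Langerhans cells need, had a log2 fold change of -0.26 (adjusted p = 0.545), and its groups overlapped.

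**Figure D1:**
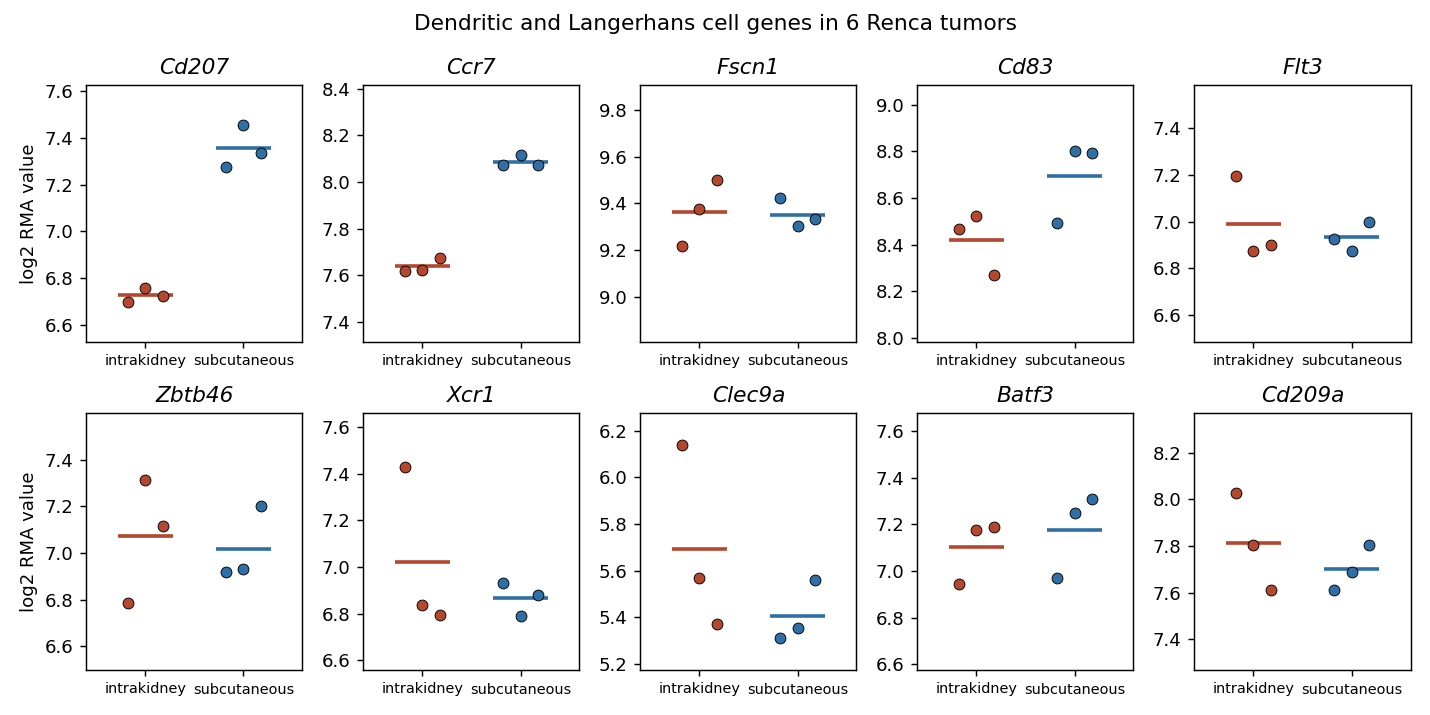
Log2 RMA values of the 10 genes in each tumor; each point is 1 tumor (numbers 1 to 3 from left to right within a group), the line is the group mean, intrakidney tumors are on the left of each panel, and every panel spans the same length of log2 scale. Cd207 and Ccr7 show no overlap between groups, and Xcr1 and Clec9a each show 1 intrakidney tumor well above the other 5.

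Ccr7 encodes the chemokine receptor that guides mature dendritic cells, and also naive and central memory T cells, towards lymph nodes. The values were 7.62, 7.62 and 7.68 in the intrakidney tumors and 8.07, 8.11 and 8.07 in the subcutaneous tumors. Both groups were tight and separated by a gap of 0.40. The log2 fold change was -0.45 ± 0.06 (SE, n = 3 per group, 95% interval -0.60 to -0.30), 1.36-fold lower in intrakidney tumors, and the adjusted p of 0.0587 missed the threshold. It passed in 4 other settings, with adjusted p between 0.00814 and 0.0334: without dim genes, with an offset on the linear scale, with a robust prior that follows intensity, and with array weights. It did not pass with any 1 array left out (adjusted p between 0.120 and 0.393), when every row was tested (0.190) or after quantile normalisation (0.0566). Nor did it pass with averaged rows (0.0586) or with the replicate block (0.184). The T cell genes given above also lay lower in intrakidney tumors, and Cd3d, a chain of the T cell receptor complex, measured 5.71, 5.85 and 5.78 in intrakidney tumors against 6.19, 6.35 and 6.28 in subcutaneous tumors (log2 fold change -0.49, adjusted p = 0.0797).

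Cd83, a surface protein of mature dendritic cells that activated B cells also carry, measured 8.47, 8.52 and 8.27 in intrakidney tumors and 8.49, 8.80 and 8.79 in subcutaneous tumors. The groups overlapped, because subcutaneous tumor 1 lay between intrakidney tumors 1 and 2. The log2 fold change was -0.28 ± 0.11 (SE, 95% interval -0.54 to -0.02, adjusted p = 0.565, unadjusted p = 0.0396). With Cd207 and Ccr7 this made 3 of the 10 genes at an unadjusted p under 0.05, all lower, where 8.43% of all genes reached that, 3.71% as lower and 4.72% as higher. B cell genes, of which 9 of 10 were measured, had a median of 0.03 for the log2 fold change, with a summed linear signal of 599 to 623 in intrakidney tumors and 581 to 633 in subcutaneous tumors.

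Fscn1 encodes fascin, the actin-bundling protein of the dendrites of mature dendritic cells, which many tumor and vessel cells also make. It measured 9.22, 9.37 and 9.50 in intrakidney tumors against 9.42, 9.30 and 9.33 in subcutaneous tumors. The subcutaneous values lay inside the range of the intrakidney values, and the log2 fold change was 0.01 (95% interval -0.20 to 0.22, adjusted p = 0.992). That interval does not reach the estimate for Ccr7.

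The wider maturation and migration list held 22 measured genes of 24, with 11 above 0, 11 below, 0 past the threshold and a median log2 fold change of 0.03. Apol7c, a gene of the apolipoprotein L family, measured 4.91, 4.85 and 4.82 in intrakidney tumors and 5.57, 5.27 and 5.60 in subcutaneous tumors (-0.62 ± 0.10, SE, adjusted p = 0.0891). Nfkb2, a subunit of the non-canonical NF-kB pathway, and Anxa3, an annexin, lay the other way, with log2 fold changes of 0.29 and 0.34 (adjusted p = 0.350 and 0.205), and the groups of all 3 did not overlap. The chemokine gene Ccl22, named after its values were seen, had 6.92, 6.76 and 6.96 in intrakidney tumors and 6.91, 7.52 and 7.44 in subcutaneous tumors (-0.41, adjusted p = 0.543). The co-stimulatory genes Cd40, Cd80 and Cd86, likewise named after their values were seen, had log2 fold changes of 0.10, 0.25 and -0.15, with overlapping groups.

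**Figure D2:**
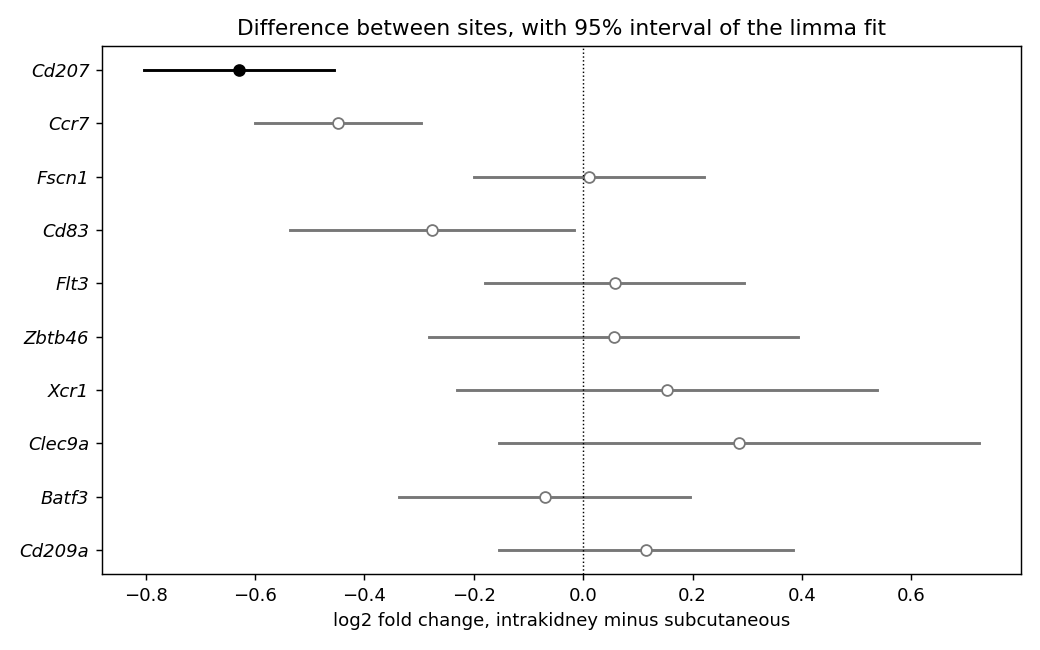
Log2 fold change of each gene (horizontal axis, intrakidney minus subcutaneous) with its 95% interval from the limma fit; the filled point passed an adjusted p of 0.05 and open points did not. The intervals of Cd207, Ccr7 and Cd83 lie below 0 and the other 7 span it.

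Flt3 encodes the receptor tyrosine kinase through which Flt3 ligand sustains dendritic cell precursors. Its values were 7.20, 6.87 and 6.90 in intrakidney tumors and 6.93, 6.87 and 7.00 in subcutaneous tumors. Intrakidney tumor 1 was the highest of the 6 and the others were close together (log2 fold change 0.06, 95% interval -0.18 to 0.29, adjusted p = 0.946). Zbtb46, a transcription factor of conventional dendritic cells that some endothelium also makes, measured 6.78, 7.31 and 7.12 in intrakidney tumors and 6.92, 6.93 and 7.20 in subcutaneous tumors. Here intrakidney tumor 1 was the lowest and intrakidney tumor 2 the highest, so the spread within the intrakidney group exceeded the difference of 0.06 between groups (95% interval -0.28 to 0.39, adjusted p = 0.963). Endothelial genes had 9 of 12 above 0, 1 past the threshold (Emcn, higher) and a summed linear signal of 4178 to 4335 in intrakidney tumors and 3509 to 3841 in subcutaneous tumors, and their part in the Zbtb46 values was not tested.

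Identity and precursor genes beyond these gave 8 of 12 above 0, 0 past the threshold and a median of 0.05. Spi1, which encodes the myeloid factor PU.1, measured 9.00, 9.01 and 8.87 in intrakidney tumors and 8.50, 8.52 and 8.75 in subcutaneous tumors (log2 fold change 0.37, adjusted p = 0.266). PU.1 is a factor of macrophages as well. Macrophage and monocyte genes had 8 of 12 measured genes above 0, 4 below and a median of 0.08. Their summed linear signal was 26850 to 32230 in intrakidney tumors and 26944 to 28552 in subcutaneous tumors. The lowest adjusted p among them were those of Cd14, Cd163 and Mrc1 (0.0744, 0.0744 and 0.212 in limma). These 3 genes were higher in intrakidney tumors, by 0.44, 1.04 and 0.39, and their groups did not overlap. The part of macrophage RNA in the Spi1 values was not tested. Kmo, an enzyme of tryptophan breakdown, and Rel, an NF-kB subunit, had log2 fold changes of 0.41 and -0.19 (adjusted p = 0.663 and 0.650), with overlapping groups.

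Of the 3 genes of type 1 conventional dendritic cells, Xcr1 and Clec9a had a larger SD in intrakidney than in subcutaneous tumors. So did Ccr7, Fscn1, Flt3, Zbtb46 and Cd209a, and Batf3 did not. Xcr1 encodes the receptor through which type 1 cells sense XCL1 from T and NK cells. It measured 7.43, 6.84 and 6.80 in intrakidney tumors and 6.93, 6.79 and 6.88 in subcutaneous tumors. Clec9a, a lectin that binds actin exposed on dead cells, measured 6.14, 5.57 and 5.37 in intrakidney tumors and 5.31, 5.35 and 5.56 in subcutaneous tumors. Intrakidney tumor 1 was highest for both genes, by 0.50 and 0.57 over the next tumor. Only 0.14% and 0.0903% of all genes were highest in that tumor by as much, a comparison chosen after the values were seen. The differences between groups were 0.15 ± 0.16 for Xcr1 and 0.29 ± 0.19 for Clec9a (SE, 95% intervals -0.23 to 0.54 and -0.15 to 0.72, adjusted p = 0.889 and 0.769). Without intrakidney tumor 1 they were -0.05 and 0.06. Clec9a was the 1 gene of the 10 with a mean under the 40th percentile of all genes, where RMA compresses differences. The other 9 passed that filter, which uses the mean over all 6 arrays. Cd207 passed it through its subcutaneous values, as its intrakidney mean of 6.73 lay below the cut of 6.82.

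Batf3, the transcription factor that type 1 cells need to develop, did not share that pattern. It measured 6.95, 7.18 and 7.19 in intrakidney tumors and 6.97, 7.25 and 7.31 in subcutaneous tumors, and intrakidney tumor 1 was the lowest of the 6 (log2 fold change -0.07, 95% interval -0.34 to 0.20, adjusted p = 0.940). In the wider type 1 list 4 of 13 measured genes of 14 lay above 0 and 9 below, 0 passed, and the median was -0.05. Irf8, the partner factor of BATF3, measured 9.02, 8.81 and 8.78 in intrakidney tumors and 8.70, 8.68 and 8.67 in subcutaneous tumors (0.19, adjusted p = 0.620), again with intrakidney tumor 1 highest. Cadm1, an adhesion molecule of type 1 cells, had a log2 fold change of -0.17 (adjusted p = 0.682).

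Cd209a, the mouse relative of the human lectin DC-SIGN, measured 8.03, 7.80 and 7.61 in intrakidney tumors and 7.61, 7.69 and 7.80 in subcutaneous tumors. Intrakidney tumor 1 was again the highest, by 0.22, and the remaining tumors of both groups interleaved (log2 fold change 0.11, 95% interval -0.15 to 0.38, adjusted p = 0.879). Of 13 type 2 genes 5 lay above 0 and 8 below, with 0 past the threshold and a median of -0.06. Of 3 C-type lectin genes in that list, Clec10a measured 8.21, 7.91 and 7.75 in intrakidney tumors and 7.14, 7.08 and 7.46 in subcutaneous tumors (0.73 ± 0.14, SE, adjusted p = 0.152), Mgl2 had a log2 fold change of 0.43 (adjusted p = 0.379), and Clec4a4, named after its values were seen, one of -0.06 with overlapping groups (adjusted p = 0.928). CLEC10A and MGL2 are made by alternatively activated macrophages too. Cd300a, an inhibitory receptor of myeloid cells, lay lower (-0.28, adjusted p = 0.374).

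Counted over all 10 genes, intrakidney tumor 1 held the highest value of 4 (Xcr1, Clec9a, Flt3 and Cd209a) and the lowest value of 5 (Cd207, Ccr7, Fscn1, Zbtb46 and Batf3). Among all genes it held the highest value of 19.5% and the lowest of 27.5%. The intrakidney SD exceeded the subcutaneous SD 4.95 times for Xcr1 and 2.98 times for Clec9a, and was 0.317 times as large for Cd207. Macrophage and monocyte genes were also highest in intrakidney tumor 1 in 8 of 12 cases, with list means of 10.63, 10.43 and 10.36 in intrakidney tumors and 10.37, 10.30 and 10.26 in subcutaneous tumors, and their part in the 4 high values was not tested. Proximal tubule genes had list means of 6.71, 7.06 and 7.69 in intrakidney tumors and 6.63, 6.67 and 6.78 in subcutaneous tumors. By these means tumor 1 was the lowest intrakidney tumor. Their summed linear signal was 3301, 2938 and 4376 in intrakidney tumors, lowest in tumor 2, and 3062 to 3227 in subcutaneous tumors. Adjoining kidney would bring these genes, and Renca, a renal line, may make them too. Aqp1 measured 8.60, 7.87 and 7.94 in intrakidney tumors and 9.16, 9.07 and 9.29 in subcutaneous tumors. Cyp2e1 measured 8.36, 7.41 and 10.02 in intrakidney tumors and 6.04, 5.87 and 6.24 in subcutaneous tumors. Of 14 measured genes 12 lay above 0 and 2 below (Aqp1 at -1.04 and Gatm, named after its values were seen, at -0.18). Cyp2e1 and Pck1 were higher in intrakidney tumors, by 2.55 and 0.64. The adjusted p in limma was 0.114 for Aqp1, 0.209 for Cyp2e1 and 0.436 for Pck1, and the groups of these 3 genes did not overlap. A fit without intrakidney tumors 2 and 3 was decided with the values in view and leaves 1 intrakidney tumor. In that fit Cd207, Ccr7, Xcr1 and Clec9a had log2 fold changes of -0.66, -0.47, 0.56 and 0.73. Tumor 1 held the lowest intrakidney value of Cd207 and Ccr7 and the highest of Xcr1 and Clec9a. Differences larger than with all arrays were thus fixed in advance. The part of kidney RNA in these values was not tested.

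**Figure D3:**
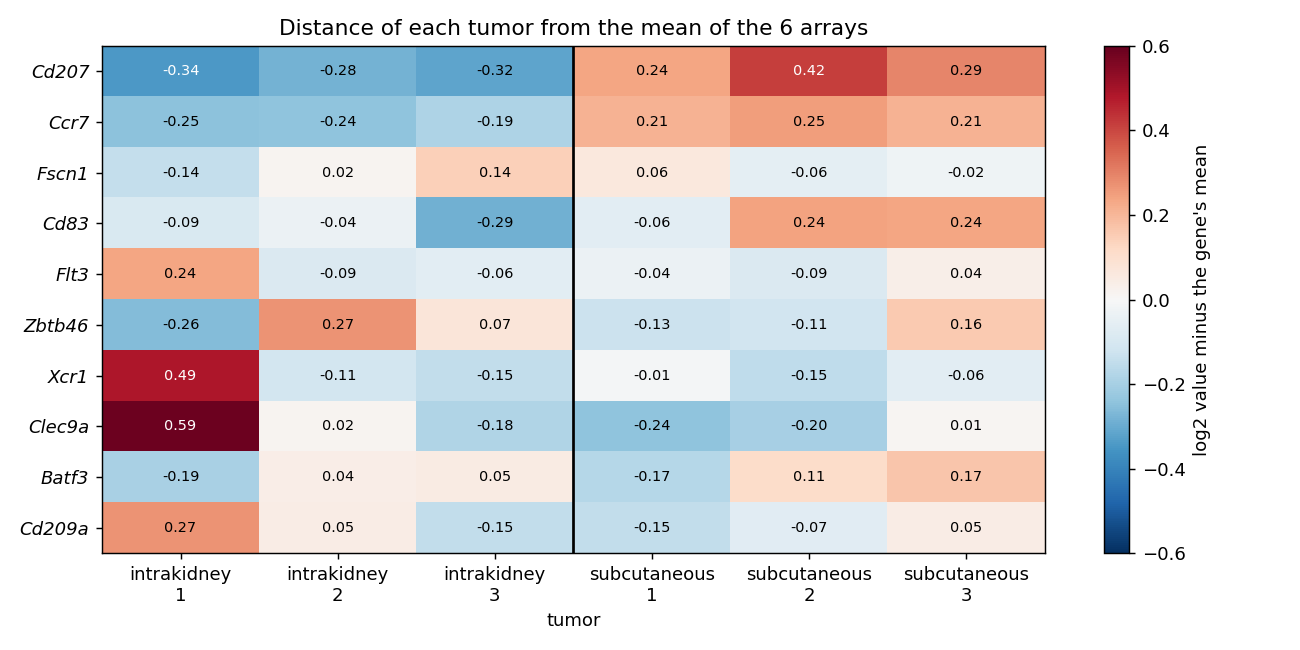
Log2 value of each gene in each tumor minus that gene's mean over the 6 arrays; rows are genes, columns are tumors, the vertical line divides intrakidney from subcutaneous tumors, red is above the mean and blue below. Cd207 and Ccr7 are below their mean in all 3 intrakidney tumors, and Xcr1 and Clec9a are 0.49 and 0.59 above it in intrakidney tumor 1.

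Likeness to other genes was measured as the root mean square difference between log2 values, each centred on its own mean over the 6 arrays, among 18351 other named genes, for the 2 genes with the widest range. The profiles nearest to Cd207 were those of Col6a2 (0.0698), Col4a4 (0.0736) and Cd3d (0.0752). The profiles nearest to Clec9a were those of Slamf8 (0.0554), Bin2 (0.0669) and Spata22 (0.0964). Slamf8 measured 7.93, 7.51 and 7.23 in intrakidney tumors and 7.08, 7.17 and 7.40 in subcutaneous tumors, with intrakidney tumor 1 highest as for Clec9a. These values describe 6 arrays and carry no test, and whether all 6 were normalised together is unknown.

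Among the ligands of these receptors none passed the test. Flt3l, Xcl1 and Ccl19, the ligands of FLT3, XCR1 and CCR7, named after their values were seen, had log2 fold changes of 0.01, 0.08 and -0.02 with overlapping groups, and Ccl21a was not analysed here. Of 11 measured ligand and growth factor genes of 12 listed, 8 lay above 0, 0 passed the threshold and the median was 0.08. Csf2, which encodes GM-CSF, a growth factor of monocyte-derived dendritic cells, measured 7.55, 7.49 and 7.74 in intrakidney tumors and 6.64, 6.84 and 7.02 in subcutaneous tumors. The groups did not overlap, and the log2 fold change of 0.76 ± 0.11 (SE) missed the threshold (adjusted p = 0.0724). Csf1, the growth factor of macrophages and a ligand of the receptor on which Langerhans cells depend, had a log2 fold change of 0.33 (adjusted p = 0.414), and the chemokine gene Ccl5 one of -0.24 (adjusted p = 0.700).

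Plasmacytoid dendritic cells, which make type I interferon, were read through 11 measured genes of 14 listed. Of these 3 lay above 0 and 8 below, 0 passed the threshold, and the median was -0.05. The chemokine receptor gene Ccr9 measured 5.65, 5.47 and 5.51 in intrakidney tumors and 5.86, 5.77 and 5.76 in subcutaneous tumors (-0.25, adjusted p = 0.408). Tlr9, the receptor of unmethylated DNA, had a log2 fold change of -0.23 and the factor gene Spib one of 0.16 (adjusted p = 0.531 and 0.682). The groups of these 3 genes did not overlap.

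At an unadjusted p of 0.05 in limma, the lists with 0 genes past the adjusted threshold divided as follows. Langerhans cell genes had 0 higher and 4 lower, plasmacytoid genes 0 higher and 2 lower, type 1 genes 0 higher and 1 lower, and T cell genes 0 higher and 4 lower. Type 2 genes and maturation genes each had 2 higher and 2 lower, identity and precursor genes 1 higher and 0 lower, and ligand genes 2 higher and 0 lower. Macrophage and monocyte genes had 3 higher and 0 lower, proximal tubule genes 3 higher and 1 lower, and B cell and keratinocyte genes 0 either way. Over all genes 4.72% were higher and 3.71% lower at that level. Some genes stand in several lists, such as Ly75, which is the lower gene of the type 1 list and 1 of the 4 of the Langerhans list.

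**Figure D4:**
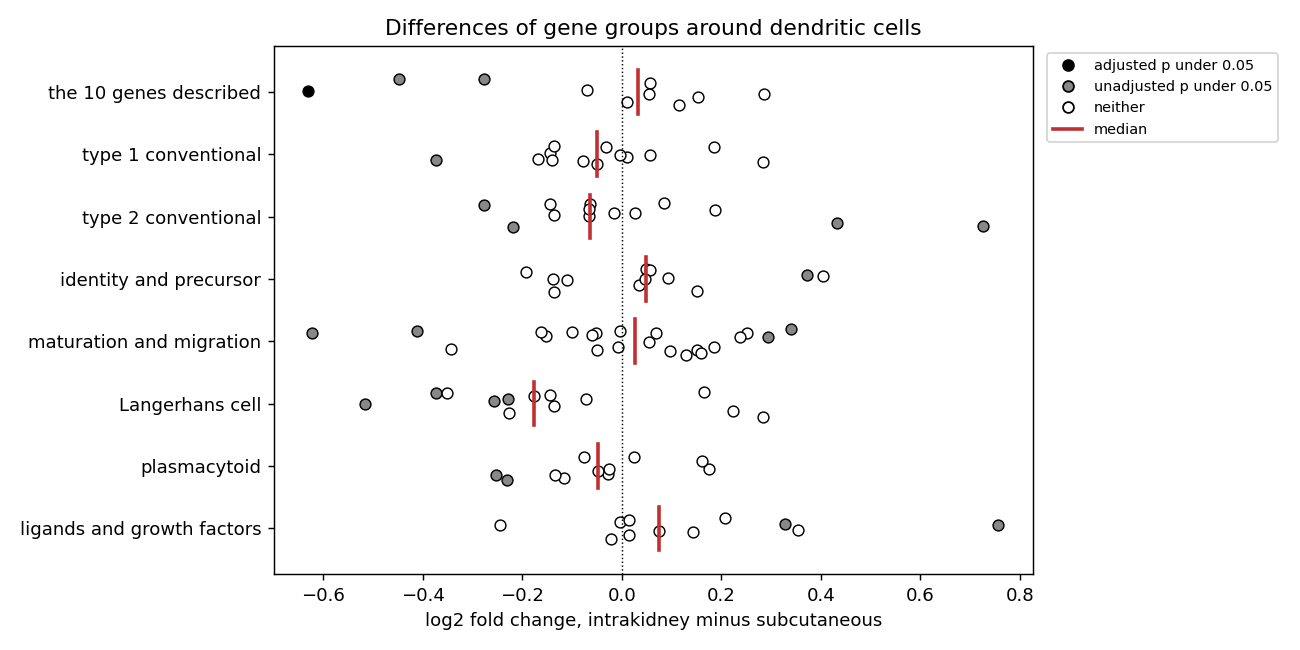
Log2 fold change (horizontal axis, intrakidney minus subcutaneous) of each gene in the 10 genes described and in 7 lists around dendritic cells; each point is 1 gene, black passed an adjusted p of 0.05 over all genes, grey only an unadjusted p of 0.05, and the red line is the list's median. Cd207 is the only black point, and the Langerhans cell list has the lowest median (-0.18).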

How the data were processed

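RNA of 3 intrakidney and 3 subcutaneous Renca tumors was measured on Mouse Gene 1.0 ST arrays, per the labels' protocols. The authors used RMA and affy, per the submitters' processing notes, and deposited log2 values; their range (2.31 to 15.07) is the basis for calling them log2. Versions, settings and build are not given in the sources used here. Whether all 6 arrays were normalised together is unknown.

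Of 35512 rows, 21789 were paired with exactly 1 gene by the platform annotation, 1621 with several and 12102 with none here. The row with the highest mean was kept for each gene (999 genes had more than 1), leaving 19938 genes, and all 10 described genes matched RefSeq by Entrez identifier. The 2 groups were tested in limma 3.58.1 under R 4.3.3 (lmFit, eBayes, two-sided), with Benjamini-Hochberg adjustment over all genes and a threshold of 0.05; the fit was tested on simulated data. Separate mice stand behind the arrays of a group, and no batch is labelled. Other settings (quantile normalisation, a filter at the 40th percentile, an offset of 16, rows averaged or all tested, other priors and weights, the replicate block, left-out arrays) are given in the closing section.

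The genes and lists were chosen with earlier results of these data known, so no list was tested. Named genes are all 10, up to 3 per list by lowest adjusted p with any past the threshold, and the 3 profiles most like the 2 widest-ranging genes, accession-like symbols left out. Summed linear signal is the sum of 2 to the power of the log2 value, in arbitrary units. The replicate numbers were taken as names. Deviations of same-numbered arrays from their group means correlated across genes at 0.374, -0.159 and 0.104. Different-numbered arrays gave -0.441 to 0.429. Deviations within a group sum to 0, so these correlations cannot decide whether the numbers mark pairs.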

Additional observations from a re-analysis of the deposited data

How the results depend on the processing

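The number of genes past the threshold was 46, and 1 of the 10 described genes was among them. Leaving out 1 array gave 2 to 33 genes and 0 described genes each time (from 0 to 0), with 21 genes without intrakidney tumor 1 and 2, 3 and 4 without subcutaneous tumors 1, 2 and 3. At an adjusted p of 0.01 there were 5 genes and 0 described. Testing every row of the array gave 0 (2206 rows at an unadjusted p of 0.05), 0 described, as did the replicate block (0 genes, 1825 at an unadjusted p of 0.05, 0 described), in which the pairing rests only on shared numbers. Quantile normalisation gave 54 genes and averaged rows 46, each with 1 described (Cd207). Counts were more than 1.5 times larger without dim genes (101, 2 described), with an offset of 16 (74, 2 described), with an prior that follows intensity (138, 2 described) and with array weights (624, 2 described), and in these 4 settings the described genes were Cd207 and Ccr7. Without intrakidney tumors 2 and 3, added after seeing the data, the lone intrakidney array is assumed to vary like the subcutaneous ones; 30 genes and 0 described passed, and the median of the described genes was -0.18 in place of 0.03.

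Cd207 and Ccr7 kept their sign in all 15 other settings. For the described genes the sign was fixed in advance in the settings that leave the log2 fold change as it was. These were rows averaged, every row, the prior that follows intensity, the replicate block and the dim filter. For Cd207 and Ccr7, whose groups did not overlap, the sign was also fixed with the offset, with array weights and with arrays left out. Over the 15 settings Cd207 lay between -0.69 and -0.56, with an adjusted p from 0.00354 to 0.179. Ccr7 lay between -0.47 and -0.42, with an adjusted p from 0.00814 to 0.393. With at least 2 arrays in each group the unadjusted p was at most 0.000311 for Cd207 and 0.00148 for Ccr7. The Cd207 call was lost with the replicate block (adjusted p = 0.112), with every row (0.126), without each array and without intrakidney tumors 2 and 3 (0.153). Cd83 and Clec9a also kept their sign where tested, and Clec9a was not tested without dim genes. Cd207 stayed in that filter by its mean over all 6 arrays, with an intrakidney mean of 6.73 below the cut of 6.82. Signs turned for genes near 0 that did not pass: Cd209a was -0.00191 with array weights, and without intrakidney tumor 1 Xcr1 was -0.0512, Flt3 -0.0463 and Batf3 0.00855. Without single arrays Zbtb46 ranged from -0.0655 to 0.199, Fscn1 from -0.0566 to 0.0842, Xcr1 from -0.0512 to 0.266, Flt3 from -0.0463 to 0.115 and Batf3 from -0.173 to 0.00855. Fscn1 was -0.14 and Zbtb46 -0.23 without intrakidney tumors 2 and 3. The causes were not tested.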
